A study of Arabidopsis thaliana with 6 samples.

Results

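The rosette leaves of tertiary trisomy 2 (AAa) were compared with those of the diploid wild type (WT) on 4 of the 6 Arabidopsis arrays of the series, 2 for each karyotype, assigned by their titles. WT was Columbia-0 (Col-0), with neither T-DNA nor extra chromosome. AAa plants held the aur2-1 T-DNA in one copy of AURORA2 (AUR2, AT2G25880) on an additional chromosome, in which Chr.2 up to AUR2 is joined to the end of Chr.3 that precedes AT3G20040, so that genes of both pieces were present in 3 copies. The arrays of trisomy 2 (AAA), with a whole extra Chr.2 and intact AUR2, entered the fit to share its estimate of spread. Both trisomics descended from selfed aur2-1/+ plants and were picked by their round leaves before genotyping. Every array, WT included, held RNA combined from 21 to 35 plants in the Col-0 background, 26 days old and grown with 16 h of light at 22 °C. In AAa the T-DNA, the junction and the extra copies came together, and their parts in a change cannot be told apart.

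An additional chromosome can act on transcripts in cis, on the genes it carries, whose level may follow the number of copies or depart from it. It can also act in trans, on genes whose copy number is normal, through regulators, metabolism or growth. Trisomic plants of many species are smaller or altered in leaf shape, and defence and stress genes are often among those that move. Here cis means Chr.2 up to AUR2 and Chr.3 before AT3G20040, and trans means every other nuclear gene with a known locus. In leaf RNA, fewer cells of a type and less RNA per cell cannot be told apart.

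Values are probe set signals, centred on the median gene of Chr.1, Chr.4 and Chr.5 on each array, and ratios are given as log2, so that 1 is a doubling. "Rose", "fell", "higher" and "lower" stand for an adjusted p below 0.05 in limma over the 13648 expressed probe sets, of which 16.1% rose and 7.63% fell. Because 60.4% of all expressed probe sets had both AAa arrays above or both below the WT arrays, separation of the arrays alone says little. Over those probe sets, arrays of one karyotype had a correlation of 0.986 to 0.989, and a WT and an AAa array of 0.962 to 0.965. Of 19 marker genes for leaf cell types, meristem, flower, seed and root, 1 had a named probe set and it was not expressed, so the tissue could not be checked in this way.

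Brightness moved with the karyotype. Among trans genes of Chr.1, Chr.4 and Chr.5 the median log2 ratio of AAa to WT was 0.12 in the dimmest decile of probe sets, 0.01 in decile 7, -0.12 in the top decile short of its brightest percent, and -0.36 for the 17 genes in that percent, 12 of which fell. The highest signal as deposited, before centring, was 63649 and 60673 on the WT arrays against 36484 and 45116 on the AAa arrays. For the ubiquitin control, whose 3' and 5' probe sets report on RNA integrity, 3' exceeded 5' by a log2 of 1.64 and 1.86 in WT and of 1.14 and 1.35 in AAa. The karyotypes overlapped in the actin control (3.51 and 3.90 in WT, 2.86 and 3.52 in AAa) and in the GAPDH control (0.04 and 0.08 in WT, 0.48 and 0.07 in AAa). Lists of bright genes are therefore given again after lowess on signal, a setting added once the trend had been seen. It removes from each array a curve fitted to the expressed genes of Chr.1, Chr.4 and Chr.5. The part of brightness or RNA integrity in the results was not tested.

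**Figure D1:**
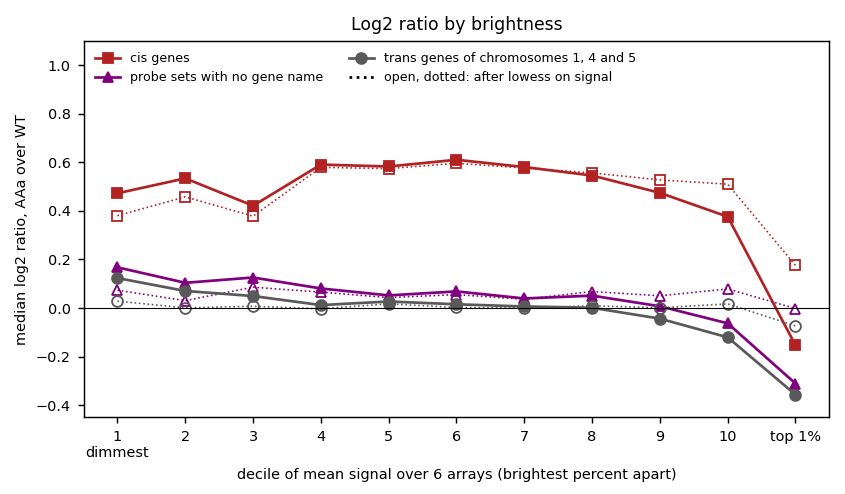
Median log2 ratio of AAa to WT (vertical axis) by decile of mean signal, with the brightest percent apart (horizontal axis), for cis genes (squares), probe sets without a gene name (triangles) and trans genes of Chr.1, Chr.4 and Chr.5 (circles). Open symbols follow lowess on signal. The trans medians run from 0.12 in the dimmest decile to -0.36 in the brightest percent, and from 0.03 to -0.07 after lowess.

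The first question is how far genes on the additional chromosome followed their copies. Most were higher in AAa. On Chr.2 up to AUR2 the median of 410 expressed genes was 1.47-fold WT (log2 0.55, quartiles 0.34 and 0.71), where 254 rose (62%) and 3 fell (0.732%). On Chr.3 before AT3G20040 the median of 658 genes was 1.43-fold (log2 0.52, quartiles 0.30 and 0.71), where 367 rose (55.8%) and 3 fell (0.456%). The single AAa arrays gave medians of 0.55 and 0.55 for Chr.2 and of 0.51 and 0.52 for Chr.3. Together 621 of 1068 cis genes rose (58.1%) and 6 fell (0.562%), and 93.9% had a ratio above WT. On simulated data with 172 calls, against 3236 here, the fit found 52.1% of genes changed by 1.5-fold. Fewer changed genes make the adjustment stricter, so that share may be too low for these data. Missing the threshold against WT still does not by itself show that a cis gene lacked the increase. The 621 became 403 when AAa array 1 was left out and 376 when AAa array 2 was.

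**Figure D2:**
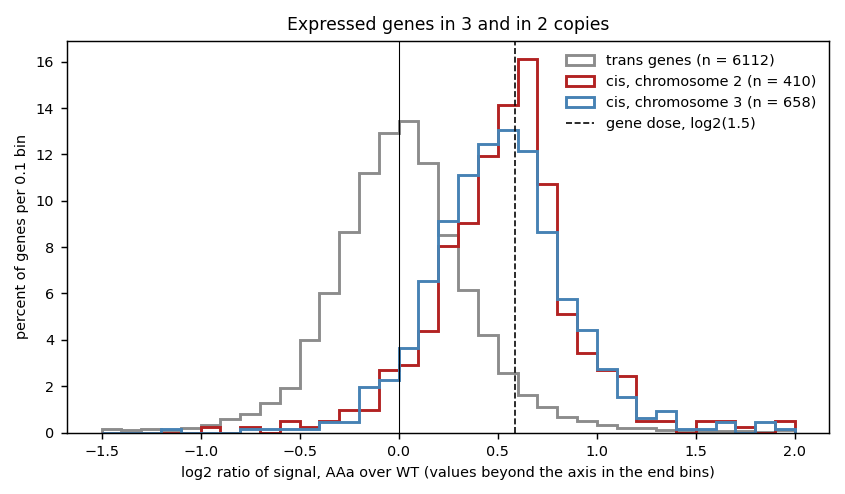
Percent of expressed genes (vertical axis) per 0.1 of the log2 ratio of AAa to WT (horizontal axis) for trans genes (grey), cis genes of Chr.2 (red) and cis genes of Chr.3 (blue). The cis medians of 0.55 and 0.52 lie close to the dashed line at log2 of 1.5, the ratio of gene copies, and the trans median at 0.01.

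Single cis genes departed from gene dose in both directions. Tested against 1.5-fold, 52 of 1068 lay above it (4.87%) and 115 below it (10.8%). Of the 115, 6 had fallen under WT and 109 did not differ from WT. A further 569 genes rose without differing from gene dose, and 332 differed from neither. Brightness moved with this split: with the cis genes split by mean signal into 3 sets of 356, 20 of the 115 were in the dimmest set, 25 in the middle and 70 in the brightest, and after lowess 30, 25 and 46 lay below gene dose. Leaving out an array gave 15 above and 41 below for AAa array 1, 15 and 43 for AAa array 2, 44 and 67 for WT array 1, and 32 and 62 for WT array 2.

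At the end of the Chr.2 piece, the aurora kinase gene AUR2, active in mitosis, had signals of 68.4 and 61.0 in WT, 975 and 971 in AAa and 67.3 and 70.4 in AAA. Where its probes lie relative to the T-DNA was not analysed here. The ratio of AAa to WT was the largest in cis (log2 3.91, SE 0.19, adjusted p = 2.17e-08), but both WT signals lay under 77.8, the mean needed to count as expressed, so the size of the ratio rests on dim signals. UGT76B1, on the Chr.3 piece, glycosylates salicylic acid and isoleucic acid and so tempers defence. It went from 329 and 317 to 1391 and 1457 (log2 2.14, SE 0.14, adjusted p = 1.10e-07), above gene dose with adjusted p = 1.65e-06, while AAA, which has 2 copies of it, had 202 and 195. AT3G13610 (F6'H1), which opens the path to scopoletin and other coumarins, went from 695 and 547 to 1835 and 1956 (log2 1.62), and AAA had 379 and 293 (log2 2.51 for AAa over AAA, adjusted p = 4.19e-08).

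Further genes of the Chr.3 piece stood above gene dose. AT3G02840, of the ARM repeat family, went from 151 and 134 to 542 and 499.5, and AT3G01800, of the ribosome recycling factor family, from 82.4 and 105 to 319 and 336. AT3G02280 went from 111 and 47.1 to 227 and 293 (log2 1.83, or 1.21 with WT array 2 left out, where it passed). IDH-VI, a subunit of mitochondrial isocitrate dehydrogenase picked after its values had been seen, went from 462 and 403 to 1052 and 1075 (2.46-fold, adjusted p = 0.00256 against gene dose). On the Chr.2 piece AT2G24390, AT2G24240 and AT2G16890 had log2 ratios of 1.80, 1.70 and 1.67. The first, with 94.5 and 50.0 in WT, rests in part on a signal under 77.8 too. AAA also holds these 3 genes in 3 copies: AT2G24240 was higher in AAa than there (log2 0.59, adjusted p = 0.00988), and for AT2G24390 and AT2G16890 the difference did not pass (adjusted p = 0.33 and 0.0743).

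The 6 cis genes that fell with 3 copies present were BCAT4, AT2G20560, AT2G19310, AT3G05730, AT3G16670 and LCR68. BCAT4, the aminotransferase that starts methionine chain elongation for aliphatic glucosinolates, went from 2804 and 2823 to 1264 and 1188 (log2 -1.20, SE 0.11, adjusted p = 3.15e-06), and AAA had 2794 and 2870.0. AT2G20560, of the DNAJ chaperone family, went from 257 and 315 to 164 and 124 (log2 -0.996, or -0.79 with AAa array 2 left out, where it did not pass), and the small heat shock family gene AT2G19310 from 1325 and 1271 to 767 and 762. Both lie on the Chr.2 piece and were low in AAA too, at 111 and 116 and at 612 and 677. The defensin-like gene AT3G05730 went from 3434 and 3171 to 2011 and 1924, and AT3G16670, of the Ole e 1 family, from 3787 and 3346 to 2074 and 2509.7 (log2 -0.64, or -0.50 with AAa array 1 left out, where it did not pass).

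A pair of defensin-like genes from one part of Chr.2 moved apart. LCR68 fell from 1769.7 and 1698 to 1396 and 1341 (log2 -0.34), a call that ended with any of the 4 arrays left out (log2 -0.37 to -0.31), with the replicate block and after lowess. LCR69, picked after its values had been seen, went from 1052 and 1048 to 2615 and 3568 (log2 1.54, adjusted p = 2.41e-06) and had 2853 and 3059 in AAA. Whether either probe set also binds the transcript of the other was not tested. At the low end of the cis genes that rose were UGT88A1 (from 5988 and 6112 to 7005 and 7926, log2 0.30) and AT3G08610 (from 5019.6 and 5320.5 to 6118 and 6633, log2 0.30), and neither call held with any of the 4 arrays left out (0.21 to 0.39 and 0.24 to 0.36). Both are bright, and after lowess their log2 ratios were 0.48 and 0.46.

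**Figure D3:**
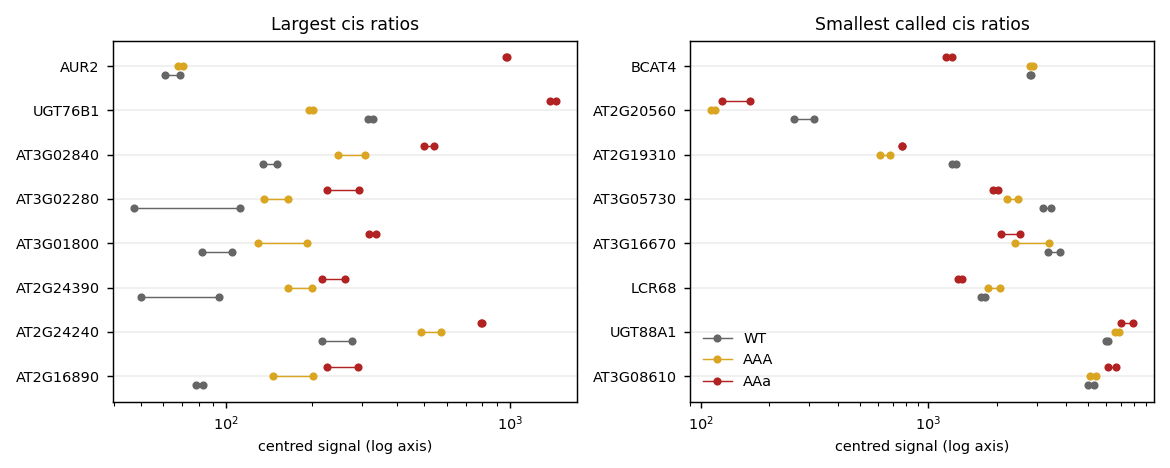
Centred signal (horizontal log axis) on each array for the 8 largest cis ratios (left) and the 8 smallest cis ratios that passed (right). Only genes with a mean signal of at least 200 in the higher group are included. Points are arrays, joined by a line for WT (grey), AAA (yellow) and AAa (red). UGT76B1 sits at 1391 and 1457 in AAa against 329 and 317 in WT, and BCAT4 at 1264 and 1188 against 2804 and 2823.

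The second question is what changed outside the additional chromosome. Of 6112 trans genes 485 rose (7.94%) and 477 fell (7.8%), 73 and 43 of them at least 2-fold, with a median log2 ratio of 0.01. By chromosome 8.06% rose and 8.53% fell on Chr.1, 9.15% and 8.37% on Chr.2 beyond AUR2, 9.56% and 6.9% on Chr.3 beyond AT3G20040, 7.77% and 7.77% on Chr.4, and 6.66% and 7.25% on Chr.5. The even split between directions depends on the scaling. Higher genes made up 50.4% of the called trans genes here and 52.4% after lowess, but 39.5% under a stricter filter, 35% for signals as deposited, 29% after quantile normalization and 26.7% with arrays centred on all expressed probe sets. The totals depend on each array: 202 rose and 218 fell when AAa array 1 was left out, 233 and 277 for AAa array 2, 392 and 333 for WT array 1, and 303 and 308 for WT array 2.

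The 15 largest trans increases came from several kinds of genes. AT1G52000, a jacalin-related lectin, went from 93.7 and 130.2 in WT to 700.3 and 485 in AAa (log2 2.40, SE 0.23, adjusted p = 5.77e-06). QQS, an orphan gene of Arabidopsis known to lower leaf starch, went from 175 and 152 to 980.1 and 728 (log2 2.37, SE 0.16, adjusted p = 1.24e-07). AT3G28220, of the TRAF-like family, went from 530.4 and 583 to 2412 and 2246 (log2 2.06, SE 0.13, adjusted p = 9.12e-08). QQS was higher again in AAA, at 1426 and 1294 (adjusted p = 0.00437 for the difference), whereas the others were lower there than in AAa.

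AT1G33950, of the AIG1 family induced by avirulence, went from 67.2 and 116 to 366 and 362. JRG21, a jasmonate-responsive oxygenase, went from 50.1 and 74.7 to 261 and 239, and BETA-VPE, a vacuolar processing enzyme, from 219 and 233 to 802 and 758. These 3 had log2 ratios of 2.04, 2.03 and 1.79. Both WT signals of JRG21 lay under the 77.8 that counts as expressed, so its ratio, too, rests on dim signals. For the glycosyltransferase gene UGT73D1, WT had 94.6 and 85.8, AAa 299 and 303 and AAA 38.7 and 18.8, so that AAa was above both. The ubiquitin ligase gene PUB19, which acts in abscisic acid and drought responses, went from 114 and 79.0 to 318 and 299, and COR15A, whose product shields chloroplast membranes in the cold, from 1455 and 1381 to 4172 and 4807 (log2 1.66, SE 0.11). The rest of the 15 largest increases were AT1G68620 (carboxylesterase family), AT1G65690, AT1G26390 (berberine bridge enzyme family), AT2G41190 (amino acid transporter family), AT1G02470 and AT5G52390, with log2 ratios from 1.53 to 1.70. Of these AT1G65690 was 1.70 with all arrays and 1.05 with WT array 2 left out, where it passed.

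A translation factor, heat-inducible genes and glutaredoxins were among the largest trans decreases. AT5G12110, one of the genes for elongation factor 1B, went from 1012 and 939 to 170.2 and 154 (log2 -2.59, SE 0.15, adjusted p = 5.91e-08), while its relative AT5G19510, at 8480.5 and 7178 and 6304 and 7126, did not pass (log2 -0.22, adjusted p = 0.184). AT4G28780, of the GDSL lipase family, went from 1095 and 1266 to 293 and 291 (log2 -2.01). AT5G48570 (ROF2), a prolyl isomerase that heat induces, went from 1596 and 1718 to 466 and 398 (log2 -1.94, SE 0.14), and AT1G54050, of the small heat shock family, from 911 and 909 to 313 and 234.

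AT4G32800, of the AP2/ERF transcription factor family, had the lowest ratio of the 15 (log2 -2.79, SE 0.59, adjusted p = 0.0032), but its AAa arrays, at 17.2 and 140.1, lay far apart (-1.28 with AAa array 1 left out and -4.30 with AAa array 2, where it passed). The calmodulin-like gene CML41 went from 526 and 510.2 to 192 and 164, and GSTU20, a glutathione transferase linked to glucosinolate synthesis, from 5814 and 5034 to 2290.2 and 1885 (log2 -1.38, SE 0.13). AT4G21870, also of the small heat shock family, went from 554 and 609 to 254 and 218 and had 681 and 667 in AAA. TRM20, of a family that recruits proteins to cortical microtubules, went from 997 and 1009 to 434 and 371. AT5G12050, AT5G62280 and AT5G58570 had log2 ratios of -1.35, -1.33 and -1.28. AT1G17350 had -1.28, or -0.76 with WT array 2 left out and -0.92 with AAa array 2, where it did not pass.

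**Figure D4:**
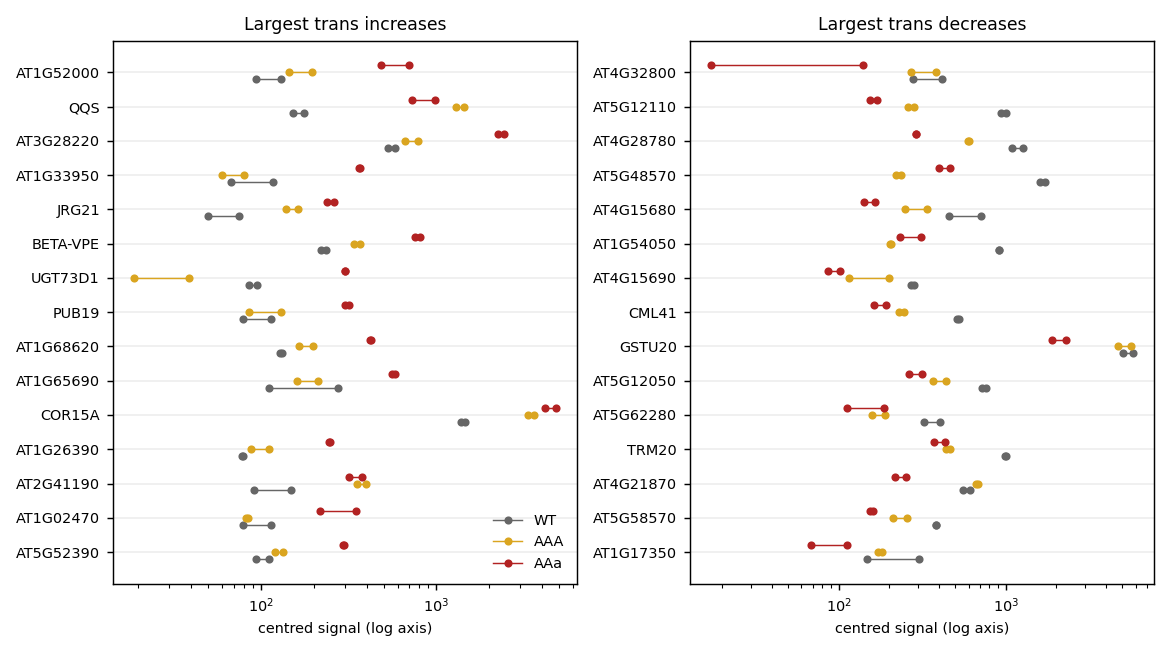
Centred signal (horizontal log axis) on each array for the 15 largest trans increases (left) and decreases (right) that passed. Only genes with a mean signal of at least 200 in the higher group are included. Points are arrays, joined by a line for WT (grey), AAA (yellow) and AAa (red). AT3G28220 sits at 2412 and 2246 in AAa against 530.4 and 583 in WT, and AT5G12110 at 170.2 and 154 against 1012 and 939.

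The same genes were set against AAA, which shares the Chr.2 piece and the round leaves with AAa. The comparisons of AAa and of AAA with WT use the same WT arrays, and those of AAa with WT and with AAA the same AAa arrays, so a gene picked for its level in AAa is more apt to differ from AAA as well. The values of AAa and AAA are therefore given side by side for some of them. Of the 15 largest trans decreases 11 were also lower in AAA than in WT. Of the 15 largest increases 5 were also higher there. AT5G12110 had 259 and 284 in AAA, AT4G28780 599 and 600, and CML41 247 and 231. In direct comparison 9 of the 15 decreases were lower in AAa than in AAA, and 13 of the 15 increases higher. In the direct difference of AAa and AAA 20.2% of trans genes and 24.9% of all expressed probe sets passed. ROF2 was lower still in AAA, at 237 and 222 (log2 0.91 for AAa over AAA, adjusted p = 2.13e-04), and for AT1G54050, at 205 and 205 there, the difference did not pass (adjusted p = 0.08). Genes of Chr.2 beyond AUR2 have 2 copies in AAa and 3 in AAA. Among them, COR15B stood at 3507 and 3204 in AAa and at 5651 and 5085 in AAA (log2 -0.68 for AAa over AAA, adjusted p = 7.83e-04). Its neighbour COR15A differed the other way, at 4172 and 4807 in AAa and 3321 and 3575 in AAA (log2 0.38, adjusted p = 0.0211).

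Jasmonate drives responses to wounding, and salicylic acid those to biotrophic pathogens. Of the function lists only genes with a named probe set, one that the annotation table assigns to that gene alone, could be followed, and the rest were not analysed here. Of 18 jasmonate response genes 5 had one and 4 were expressed, of which 2 rose, JRG21 and BETA-VPE, and 1 fell, the defensin gene PDF1.2, with a list median of 0.996 against 0.06 over all expressed probe sets. JRG21 counts as expressed through its AAA and AAa signals, since both WT signals lay under 77.8. The 4 lie in trans, where 7.94% of genes rose and 7.8% fell. PDF1.2 went from 459 and 431 to 268 and 236 (log2 -0.82, adjusted p = 4.44e-04) and stood at 2890.4 and 2534 in AAA (log2 -3.43 for AAa over AAA, adjusted p = 2.55e-10). Its copy PDF1.2b had 1267 and 1205 in WT and 1457 and 1390.0 in AAa and did not pass, and OPCL1, of jasmonate synthesis, had a log2 ratio of 0.03 (adjusted p = 0.922). Of 22 genes of salicylic acid and immunity 3 had a named probe set, and these rose, with a median of 0.60: UGT76B1, SAG101 and WRKY53. UGT76B1 lies in cis, where 58.1% of genes rose, and SAG101 and WRKY53 in trans, where 7.94% did. SAG101, a partner of EDS1, went from 274 and 222 to 440.1 and 319 (log2 0.60, or 0.45 with WT array 2 left out and 0.37 with AAa array 1, where it did not pass), and the transcription factor gene WRKY53 from 705 and 729 to 933 and 997 (log2 0.43, or 0.40 with WT array 1 left out, 0.48 with AAa array 1 and 0.38 with AAa array 2, where it did not pass).

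Of 33 early stress signalling genes 10 had a named probe set and 9 were expressed, of which 6 rose and 1 fell, with a median of 0.59. PUB19, PUB23, PUB24, CML37, CML38 and STZ rose and CML41 fell. Of all expressed probe sets 16.1% rose and 7.63% fell. PUB24 lies in cis, where 58.1% of genes rose, and the rest in trans, where 7.94% rose and 7.8% fell. PUB23, at 78.1 and 29.3 in WT, counts as expressed through its AAA and AAa signals. CML37, at 69.8 and 80.2 in WT, counts as expressed through its AAa signals alone. The call of PUB23 (log2 1.18) ended at 0.47 with WT array 2 left out, 1.26 with AAa array 1 and 1.09 with AAa array 2 (and passed at 1.88 with WT array 1 left out), and that of CML37 (0.97) at 0.87 with WT array 1 left out, 0.98 with AAa array 1 and 0.97 with AAa array 2, and both are dim, with AAa signals of 102 and 115 and of 147 and 147. PUB24 (0.59), a cis gene, ended at 0.57 with WT array 2 left out and 0.42 with AAa array 1, and the zinc finger gene STZ (0.35) with any of the 4 arrays left out (0.33 to 0.37). CML38 went from 261 and 210.3 to 435 and 288 (log2 0.60, or 0.44 with WT array 2 left out and 0.30 with AAa array 1, where it did not pass).

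Further genes, some of them of immunity, were picked after their values had been seen, so their common direction is not a result. AT1G57630, a TIR-domain gene, went from 467 and 505 to 1168 and 1022 (log2 1.17, adjusted p = 2.62e-05). The subtilase genes SBT3.3, known from immune priming, and SBT3.5 went from 237 and 247 to 602 and 540.5 and from 316 and 333 to 737 and 823. AT1G51890, a receptor-like kinase gene, went from 159.6 and 192 to 355 and 328, and the chitinase gene CHI from 1905 and 1889 to 3312 and 3209. These 5 were also higher in AAa than in AAA, with adjusted p from 1.18e-05 to 0.00378. MSRB9, which repairs oxidised methionine, went from 207 and 219 to 464 and 529, and AT5G64120, a peroxidase gene, from 242 and 239 to 514 and 451.

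Cold and abscisic acid raise a shared set of protective proteins. Of 26 genes on that list 4 had a named probe set, all in trans. These rose, with a median of 0.99, where 7.94% of all trans genes rose. Beside COR15A, COR15B went from 1776 and 1444 to 3507 and 3204 (log2 1.07, SE 0.12) and the dehydrin gene COR47 from 1884 and 2232 to 2904 and 3456 (log2 0.63). The dehydrin gene LTI30 went from 234 and 181 to 411 and 369.8 (log2 0.92, or 0.84 with AAa array 1 left out, where it did not pass). COR15A and COR15B are neighbours, and whether their probe sets share transcripts was not tested. Picked after its values had been seen, the lipocalin gene TIL, of heat and cold tolerance, went from 4769.8 and 5337 to 7251 and 7438, and the stress-induced aldehyde dehydrogenase gene ALDH7B4 from 784 and 1025 to 1582 and 1416.

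Chaperone genes went both ways. Of 27 genes on the heat shock list 7 had a named probe set and 4 were expressed, of which Hsp70-2 rose from 927 and 841 to 1646 and 1723 (log2 0.93, adjusted p = 9.35e-05), ROF2 fell, and AT3G09440, an HSP70 gene in cis, and AT5G37670, a small heat shock gene, did not pass (log2 0.21 and -0.02). Hsp70-2 and ROF2 lie in trans, where 7.94% of genes rose and 7.8% fell. Hsp70-2 was lower in AAA than in AAa, at 727 and 636 (adjusted p = 3.55e-06). Of 2 genes of folding in the endoplasmic reticulum ATERDJ3B rose from 2284 and 2451 to 3046 and 3380.3 (log2 0.44, or 0.39 with WT array 1 left out and 0.36 with AAa array 2, where it did not pass) and CRT1b did not pass (log2 -0.02). BZIP28, a sensor of unfolded proteins on the Chr.3 piece, was picked after its values had been seen and went from 881 and 681 to 1231 and 1548 (log2 0.83, adjusted p = 0.295 against gene dose).

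In protein turnover, 1 of 6 named proteasome genes (of 41 listed) rose (median 0.20) and 3 of 11 named autophagy genes (of 17) rose (median 0.33), against 16.1% of all expressed probe sets. The proteasome genes lie in trans, where 7.94% of genes rose, and 3 of the 11 autophagy genes in cis, where 58.1% did. The proteasome gene AT5G23540 had a log2 ratio of 0.39, or 0.32 with WT array 2 left out and 0.26 with AAa array 2, where it did not pass. ATG8 proteins coat the growing autophagosome. APG8H, in cis, went from 2893 and 2235 to 4959 and 3931 and ATG8D, in cis, from 364 and 339 to 559 and 563, and neither differed from gene dose (adjusted p = 0.353 and 0.73). ATG8B, in trans, had a log2 ratio of 0.71, or 0.37 with WT array 1 left out, 0.64 with AAa array 1 and 0.77 with AAa array 2, where it did not pass.

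Glutaredoxins of the CC type, small thiol proteins found in land plants of which several answer to nitrate, were mostly lower. Of 13 listed 12 had a named probe set and 11 were expressed, all in trans. Of these 7 fell and 1 rose, with a median of -0.60, or -0.67 after lowess. Among all trans genes 7.8% fell and 7.94% rose. From the tandem cluster on Chr.4, AT4G15680 went from 456 and 711 to 143 and 164, AT4G15690 from 283 and 271 to 86.8 and 102, AT4G15660 from 302 and 259 to 125 and 112 and AT4G15700 from 404 and 355 to 193 and 162. These neighbours are near-identical, so their probe sets may share transcripts. In AAA AT4G15680 had 337 and 251, AT4G15690 201 and 115, AT4G15660 203 and 240.2, and AT4G15700 188 and 256. AAA was lower than WT for AT4G15680, AT4G15690 and AT4G15700, and the difference did not pass for AT4G15660. Of the 11 expressed genes 5 differed between AAa and AAA. AT5G18600 went from 5306 and 5324 to 3872 and 4046 and AT1G03020 from 181 and 168 to 115 and 115, with AT5G18600 at -0.39 with AAa array 1 left out, where it did not pass. AT1G03020 did not pass with any of the 4 arrays left out (-0.65 to -0.55), and AT2G47880 had a log2 ratio of -0.96, or -0.57 with AAa array 1 left out, where it did not pass. AT1G06830, a glutaredoxin outside the list picked after its values had been seen, went from 1441 and 1346 to 552 and 649. The one that rose, GRX480, which links salicylic acid to jasmonate genes through TGA factors, went from 187 and 139 to 458 and 441 (log2 1.48, adjusted p = 7.07e-05). In AAA GRX480 had 152.9 and 179.6.

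Glucosinolates are sulfur-rich defence compounds of the cabbage family. Of 26 genes for the aliphatic kind 3 had a named probe set, of which BCAT4 and GSTU20 fell and AT2G31790 (UGT74C1) did not pass (1319 and 1037 in WT, 972 and 874 in AAa, adjusted p = 0.07), with a median of -1.20. BCAT4 lies in cis, where 0.562% of genes fell, and GSTU20 in trans, where 7.8% did. Both that fell were also lower than in AAA (log2 -1.21 and -1.32). UGT74B1, of the indolic kind, did not pass (log2 -0.33, adjusted p = 0.0725), but did with AAa array 1 left out (log2 -0.47, adjusted p = 0.0486). The sulfate assimilation genes APS3 and SIR did not pass against WT (log2 -0.32 and -0.23) and were lower than in AAA (adjusted p = 5.98e-04 and 9.56e-04). GSTU18, a relative of GSTU20 picked after its values had been seen, went from 2027 and 1962 to 951 and 999.

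Genes of chlorophyll and tetrapyrrole synthesis with a named probe set, 7 of 24 listed, were mostly lower. Of the 7, 5 fell and 1 rose, with a median of -0.45, or -0.39 after lowess. Over all expressed probe sets 7.63% fell and 16.1% rose. Among trans genes, where all of the 7 but HEME1 lie, 7.8% fell and 7.94% rose. PORB, a light-dependent protochlorophyllide reductase, went from 12513 and 14225 to 7450.2 and 7735 (log2 -0.81, SE 0.11, adjusted p = 8.97e-05) and was lower than in AAA too (adjusted p = 1.69e-04). GSA1, which makes aminolevulinic acid, went from 2410.1 and 2977 to 1857 and 1649. HEMB1 went from 3773 and 3994 to 2638 and 2888 (log2 -0.49, or -0.43 with AAa array 1 left out, where it did not pass) and CHLI2, of magnesium chelatase, from 1937 and 1843 to 1279 and 1494 (log2 -0.45, or -0.41 with WT array 1 left out and -0.34 with AAa array 1, where it did not pass). After lowess PORB, GSA1, HEMB1 and CHLI2 still fell, with log2 ratios of -0.59, -0.54, -0.39 and -0.41, and the methyltransferase gene CHLM no longer did (-0.33 before, -0.08 after). CHLM also lost its call at -0.21 with WT array 2 left out, -0.24 with AAa array 1 and -0.41 with AAa array 2. HEME1, in cis, rose (log2 0.37, or 0.28 with WT array 2 left out and 0.25 with AAa array 2, where it did not pass).

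The photosynthesis genes are among the brightest on the arrays, where trans genes of Chr.1, Chr.4 and Chr.5 had lower ratios. PRK, PSBY, ATPC1, PSAE-1 and LHCB4.1 are themselves among those genes, to which the lowess curve was fitted. That trend is thus not independent of them, and lowess may take out part of their own change. Of 5 named photosystem and electron transport genes (of 30 listed) 3 fell (median -0.36), of 3 named carbon fixation genes (of 14) 3 fell (median -0.44), and of 2 named light harvesting genes (of 14) 1 fell. Over all expressed probe sets 7.63% fell, and in the brightest percent 12 of 17 trans genes of Chr.1, Chr.4 and Chr.5 did. The photosystem I gene PSAE-1 went from 31256 and 31807 to 19652 and 22418, ATPC1, of the chloroplast ATP synthase, from 33185 and 33083 to 20994 and 24949, and RCA, the Rubisco activase, from 45076 and 41176 to 28017 and 32609. LHCB4.1, an antenna protein, went from 39158 and 37897 to 26743 and 30967. After lowess the list medians were -0.03, -0.15 and 0.01 and these 7 calls were lost, with adjusted p from 0.0509 (PSAE-1, log2 -0.27) to 0.891 (PRK, log2 -0.02). Quantile normalization put PRK and PSBY, at -0.34 and -0.36 here, at 0.00 and 0.03. RCA lost its call at -0.45 with WT array 1 left out and -0.40 with AAa array 1, SBPASE at -0.36 with WT array 2 left out and -0.40 with AAa array 1 and LHCB4.1 at -0.40 with WT array 1 left out, -0.44 with WT array 2 and -0.32 with AAa array 1. PRK did not pass with any of the 4 arrays left out (-0.40 to -0.27), and PSBY lost its call at -0.36 with WT array 1 left out, -0.35 with WT array 2 and -0.28 with AAa array 1.

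Signals of plastid genes had no common direction. Whether the labelling captured plastid RNA evenly was not tested. Of 64 expressed plastid genes 5 rose (7.81%) and 9 fell (14.1%), with a median of 0.00, and after lowess 7 rose and 4 fell. Among trans genes 7.94% rose and 7.8% fell. All 14 were added after their values had been seen. psbI of photosystem II fell from 6661 and 6998 to 4943 and 4763 (log2 -0.49, adjusted p = 0.00333), after lowess too, and was the one call of the 14 that held with each array left out. psbM of photosystem II rose from 22023 and 15797 to 28631 and 28664 (log2 0.62, or 0.38 with WT array 2 left out, where it did not pass). rbcL, the large Rubisco subunit, fell from 1306 and 1284 to 853 and 1077 (log2 -0.43, or -0.42 with WT array 1 left out, -0.45 with WT array 2 and -0.27 with AAa array 1, where it did not pass). psbA, of the reaction centre of photosystem II, fell from 2658 and 2862 to 2005 and 2223 (log2 -0.39, or -0.33 with WT array 2 left out and -0.31 with AAa array 1, where it did not pass). accD, of fatty acid synthesis, rose (log2 0.72, or 0.55 with WT array 2 left out and 0.39 with AAa array 2, where it did not pass). The ATP synthase gene atpI (0.76) lost its call at 0.54 with WT array 2 left out, 0.67 with AAa array 1 and 0.84 with AAa array 2, and ndhH, of the NADH dehydrogenase-like complex (0.41), at 0.33 with WT array 1 left out, 0.41 with AAa array 1 and 0.41 with AAa array 2. Of the same complex, ndhJ (-0.45) lost it at -0.29 with WT array 1 left out, -0.46 with AAa array 1 and -0.44 with AAa array 2 and ndhI (-0.44) at -0.41 with WT array 1 left out and -0.42 with AAa array 1. The increase of the ribosomal protein gene rpl36 (0.71) was lost at 0.35 with WT array 2 left out, 0.71 with AAa array 1 and 0.70 with AAa array 2 (and passed at 1.06 with WT array 1 left out), and the decrease of psaB, of photosystem I (-0.44), at -0.22 with WT array 2 left out, -0.46 with AAa array 1 and -0.42 with AAa array 2 (and passed at -0.66 with WT array 1 left out). The decreases of psbC (-0.36 to -0.32), atpA (-0.44 to -0.33) and ndhA (-0.44 to -0.28) were lost with any of the 4 arrays left out. The calls of psbC, psaB, atpA, ndhA and ndhI were lost after lowess too.

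Carbon metabolism was described from genes picked after their values had been seen, except QQS. SWEET1, a sugar transporter, went from 723 and 603 to 1307 and 1317, the sucrose phosphate synthase gene ATSPS4F from 2192 and 1905 to 3079 and 3329, and NDB2, an alternative NADH dehydrogenase of mitochondria, from 480.2 and 534 to 869 and 958. ATP-citrate lyase, which makes cytosolic acetyl-CoA, needs an A and a B subunit. ACLA-1 fell from 4681 and 4555 to 2635 and 2575 (log2 -0.83, SE 0.11, adjusted p = 9.45e-05), and ACLB-1, on the Chr.3 piece, went from 2018 and 1404 to 2528 and 2744 (log2 0.65, or 0.38 with WT array 2 left out and 0.59 with AAa array 2, where it did not pass). IDH-V, a gene for the same enzyme as IDH-VI but in trans, went from 1069.6 and 1602 to 2168 and 2121 (log2 0.71, or 0.42 with WT array 1 left out, where it passed). The NADP-dependent isocitrate dehydrogenase genes went the other way. cICDH, of the cytosol, fell from 7204 and 9643 to 5236 and 6846 (log2 -0.48, -0.29 after lowess, or -0.27 with WT array 2 left out and -0.28 with AAa array 1, where it did not pass), and ICDH from 289 and 292 to 176 and 210.0 (log2 -0.60, or -0.60 with WT array 1 left out, -0.59 with WT array 2 and -0.47 with AAa array 1, where it did not pass). Of 32 genes on the starch list 6 had a named probe set and 5 were expressed, all in trans, where 7.94% of genes rose. QQS rose, and the other 4, which build or degrade the granule, had log2 ratios from -0.25 to 0.30 and did not pass.

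Genes of growth and of the cell wall gave calls both ways. Of 25 cell wall loosening genes 12 had a named probe set and 10 were expressed. Of these 2 fell and 1 rose, with a median of -0.21. Among the 10, 2 lie in cis, where 58.1% of genes rose and 0.562% fell. The rest lie in trans, where 7.94% rose and 7.8% fell. The counts are too small to be read against those shares. The expansin genes EXPA4 and EXLA1 fell (log2 -0.60 and -0.46), but lost their calls at -0.29 with WT array 1 left out, -0.64 with AAa array 1 and -0.56 with AAa array 2 (and passed at -0.91 with WT array 2 left out) for EXPA4 and at -0.29 with WT array 2 left out, -0.51 with AAa array 1 and -0.41 with AAa array 2 for EXLA1. EXPB1, in cis, rose from 757 and 776 to 1087 and 1182. Of 27 auxin response genes 3 were named and expressed and 1 fell: IAA29 went from 335 and 364 to 155 and 197 (log2 -0.99) and had 181 and 201 in AAA. Picked after their values had been seen, GH9B7, of the endoglucanase family, went from 2199.9 and 2515 to 1460.4 and 1581, RALFL24, a peptide signal, from 304 and 313 to 166 and 167, and AT4G13840 (CER26), of wax elongation, from 1444 and 1884 to 938 and 837. The GDSL lipase family, also picked so, went both ways, with AT1G33811 from 1654 and 1558 to 726 and 714 and AT1G28600 from 1004 and 832 to 1667 and 1902.

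Other function lists had few genes with a named probe set. Among all trans genes 7.94% rose and 7.8% fell, and among all cis genes 58.1% rose and 0.562% fell. The lectin gene JAL34, in cis, went from 93.7 and 108 to 191 and 193 (log2 0.93) and was, with AT1G52000, the whole of the expressed part of the list of glucosinolate breakdown and lectins. In the flavonoid and phenylpropanoid list, with 5 of 25 genes named and expressed, F6'H1 and DFR, of anthocyanin synthesis, rose and HCT, of lignin synthesis, fell. DFR, with both WT signals under 77.8, went from 67.3 and 51.6 to 108 and 125 (log2 0.98, or 0.78 with WT array 2 left out, 1.08 with AAa array 1 and 0.87 with AAa array 2, where it did not pass), and HCT from 3155 and 3283 to 2354 and 2747 (log2 -0.34, or -0.37 with WT array 1 left out, -0.31 with WT array 2 and -0.23 with AAa array 1, where it did not pass). In the lipid transfer protein list, with 5 of 14, 2 rose and 1 fell. AT4G12490 went from 899 and 1020.0 to 2309 and 3247 (log2 1.52, SE 0.16, adjusted p = 1.60e-05) and was higher than in AAA too, at 1558 and 1188. Its neighbour AT4G12500 (0.59) lost its call at 0.48 with WT array 2 left out, 0.57 with AAa array 1 and 0.60 with AAa array 2, and the bright gene AT2G45180 (-0.38) with any of the 4 arrays left out (-0.44 to -0.32) and after lowess (-0.09). GI (GIGANTEA), the only one of 26 clock genes with a named probe set, rose (log2 0.47, or 0.39 with WT array 1 left out, 0.46 with AAa array 1 and 0.48 with AAa array 2, where it did not pass).

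Several lists had 1 or 2 genes with a named probe set and no call. The sugar transporter gene SWEET11 had 5413 and 6339.9 in WT and 4778 and 5553 in AAa (adjusted p = 0.276). The cytokinin response genes ARR15 and RR16 had log2 ratios of 0.48 and -0.34 (adjusted p = 0.189 and 0.191). AT2G21640 (UPOX), a marker of oxidative stress in cis, had -0.20 (adjusted p = 0.627), and PYE, a regulator of iron homeostasis, -0.04 (adjusted p = 0.919). The lists of chlorophyll breakdown, DNA damage, senescence, and flowering and leaf form had no named probe set and were not analysed here.

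Among 29 gene families with at least 5 expressed members under one symbol, grouped after the values had been seen, the UGT glycosyltransferases, which attach sugars to hormones and defence compounds, had 8 of 24 that rose, where 16.1% of all expressed probe sets rose and 7.63% fell. In cis these were UGT76B1 and UGT88A1, and in trans UGT73D1, UGT85A5, UGT73B1, UGT72E1, UGT84A3 and UGT87A2. Only 2 of the 24 lie in cis, where 58.1% of genes rose, against 7.94% in trans. With an array left out UGT85A5 (log2 1.05, both WT signals under 77.8) lost its call at 0.96 with AAa array 2 left out, UGT73B1 (0.81) at 0.66 with AAa array 1 left out and UGT72E1 (0.72) at 0.49 with WT array 2 left out. UGT84A3 lost its call at 0.32 with WT array 2 left out, 0.46 with AAa array 1 and 0.44 with AAa array 2, and UGT87A2 at 0.38 with WT array 1 left out and 0.38 with AAa array 2. Of 7 PUB ubiquitin ligases, 2 of them in cis, 3 rose. Of 12 UBP deubiquitinases, 2 of them in cis, 3 rose, among them UBP20 (from 145 and 148 to 251 and 275) and UBP24 (from 595 and 467 to 823 and 945). These counts are too small to set apart from the share of all probe sets. Of 9 IQD genes, whose products bind calmodulin and microtubules, 4 fell, led by IQD22 (from 435 and 451 to 236 and 276). Of 15 TBL genes, of cell wall acetylation, 3 fell and 1 rose, with TBL37 from 730.4 and 651 to 423 and 415 and TBL26 from 439.5 and 464 to 806 and 814.

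**Figure D5:**
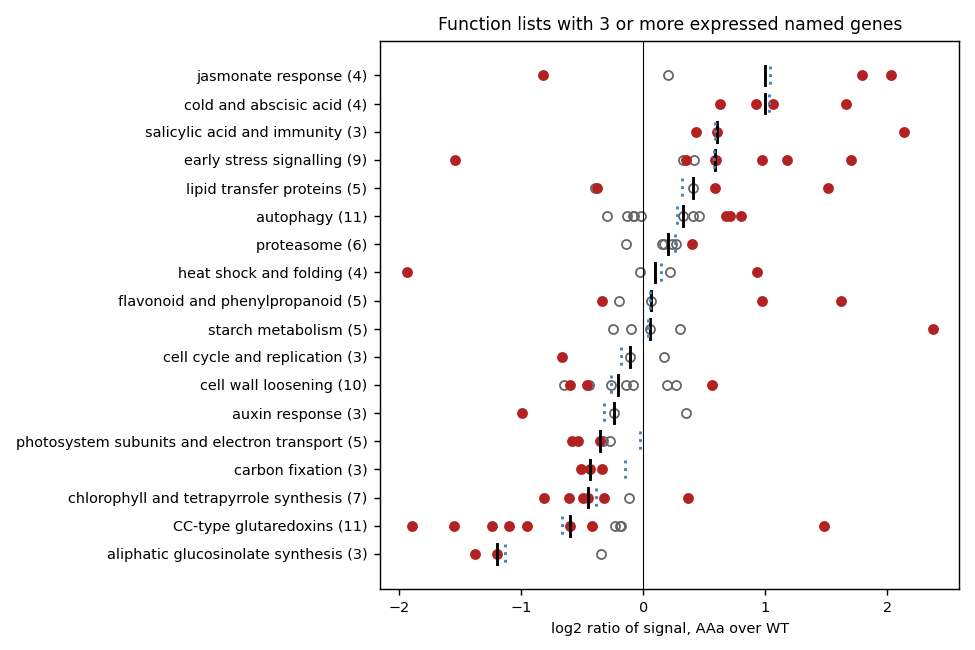
Log2 ratio of AAa to WT (horizontal axis) of each expressed gene in the function lists with at least 3 such genes (vertical axis, number of genes in brackets). Filled points passed an adjusted p below 0.05 and open points did not; black bars are list medians and dotted blue bars the medians after lowess. The photosystem and carbon fixation medians move from -0.36 and -0.44 to -0.03 and -0.15, and the glutaredoxin median from -0.60 to -0.67.

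Probe sets left without a gene name changed about as often as all probe sets: 1023 of 6050 rose (16.9%) and 526 fell (8.69%). Those with several genes, 272 in all, had 16.5% that rose and 7.35% that fell. With no locus, neither kind can be placed in cis or trans. Of the unnamed ones with a mean of at least 1000 in the higher group and separate arrays, 408 rose and 304 fell, 34 and 14 of them at least 2-fold. The 8 largest in each direction, at log2 ratios of 1.70 to 2.92 and of -3.33 to -1.22, passed with each of the 4 arrays left out. The largest increases were 265058_s_at, from 121 and 147 to 999.7 and 1029.5 (log2 2.92, SE 0.16, adjusted p = 5.91e-08), and 258158_at, from 256 and 214 to 1089 and 1094 (log2 2.22). In AAA they had 175 and 162 and 227 and 200.3.

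The largest decreases among them were 260248_at, from 1389.6 and 2199 to 161 and 187 (log2 -3.33, SE 0.21, adjusted p = 9.12e-08), and 256245_at, from 1394 and 1309.5 to 339 and 390.0 (log2 -1.89). Both were lower again in AAA, at 95.1 and 74.7 and 144 and 125 (adjusted p = 0.00172 and 8.66e-06 for the difference). Others, picked after their values had been seen, set the karyotypes apart in other ways. 245035_at went from 1268 and 1354 to 4701 and 5021 and had 1248 and 1356 in AAA, 266395_at from 1545 and 1433 to 540.5 and 522 with 1872 and 1865 in AAA, and 266841_at from 1307 and 1435 to 466 and 537 with 69.2 and 65.6 in AAA. Among unnamed probe sets with a mean of at least 10000, 67 of the 78 called fell and 11 rose, and 19 of the 78 passed after lowess, 11 of them higher.

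Of 8 genes in common use as references 3 had a named probe set, and these did not pass with all arrays. PEX4 (UBC21) had a log2 ratio of 0.13 (adjusted p = 0.485), AT4G34270 (TIP41-like) of -0.25 (adjusted p = 0.242) and AT2G28390 (SAND family) of -0.26 (adjusted p = 0.183), the last of which, with 3 copies in AAA, was lower in AAa than there (adjusted p = 3.90e-04). Against WT, AT2G28390 passed with WT array 1 left out (log2 -0.45, adjusted p = 0.0411) and stood at -0.08 with WT array 2 left out. Of 3 named and expressed cell cycle genes (of 23 listed), all in trans, where 7.8% of genes fell, the inhibitor gene SIM fell. Its log2 ratio was -0.67, or -0.53 with WT array 1 left out, -0.77 with AAa array 1 and -0.56 with AAa array 2, where it did not pass. AUR1, the close relative of AUR2, had 192 and 125 in WT and 185 and 112 in AAa (adjusted p = 0.815).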

How the data were processed

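RNA was hybridised to 6 Affymetrix ATH1 arrays (WT, AAA and AAa, 2 each, grouped by title). The deposited values are linear signal intensity per probe set, made by the authors with GCOS (version not stated). Signals below 1 were set to 1, taken to log2 and centred on expressed genes of Chr.1, Chr.4 and Chr.5. Expressed means an average log2 over 6 arrays at or above the 40th percentile (6.28, a signal of 77.8), so a gene bright in 1 group can pass. Of 22810 probe sets 13513 had 1 gene, 503 several, 8730 none and 64 were controls. Genes were counted by their brightest probe set. RefSeq tables served for names and gene order.

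limma 3.58.1 (R 4.3.3, eBayes with intensity trend, 3 residual degrees of freedom) was fitted to all 6 arrays, two-sided, with Benjamini-Hochberg adjustment over 13648 probe sets, and over 1068 cis genes for gene dose. With 2 arrays in each group, permutation gives no p under 0.333. Separate plantings are not stated for the 2 arrays of a karyotype, so p-values measure the spread between arrays, which may be technical. Tested on simulated data, the fit found 52.1%, 93.8% and 100% of 1.5-, 2- and 4-fold changes, with 11 false among 172 calls. Only 73, 64 and 63 probe sets were changed there, fewer than the 3236 called here, so these shares may not carry over.

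Members, lists and tests were chosen with earlier results of these data known. The rule named the 15 largest trans ratios each way (signal of at least 200, arrays separate), the 8 largest and 8 smallest cis ratios, the 5 furthest from gene dose each way, up to 6 called genes of each list or else 2 near its median, 2 unnamed probe sets each way (at least 1000), AUR2 and the reference genes: 108 in all. A further 92 were chosen after their values were seen. Alternatives were the filter, the scaling, a floor of 16, no trend, 4 arrays only, a replicate block, each array left out, and lowess (span 0.4).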

Additional observations from a re-analysis of the deposited data

How the results depend on the processing

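The limits are the number of arrays and the scaling. Of 200 named genes and probe sets 186 passed, and 110 of them passed with each of the 4 arrays left out in turn. Leaving out 1 array gave 1228 to 1765 probe sets higher and 476 to 741 lower, 202 to 392 trans genes higher and 218 to 333 lower, 376 to 489 cis genes higher and 5 to 6 lower, 15 to 44 above gene dose and 41 to 67 below, and cis medians of 0.5175 to 0.5515 on Chr.2 and 0.5019 to 0.521 on Chr.3. With no filter on dim probe sets 683 were lower, 18 cis genes lay above and 39 below gene dose, and the Chr.2 median was 0.4733. The 60th percentile as filter gave 292 trans genes higher and 0.5485. Signals as deposited gave cis medians of 0.493 and 0.4553. Centring on all expressed probe sets gave 1703 lower, 294 trans genes higher and 807 lower, 10 cis genes lower, 33 above and 189 below dose, and medians of 0.4521 and 0.4143. Quantile normalization gave 287 trans genes higher, 34 above dose, medians of 0.4733 and 0.4213, and turned PRK (0.0038) and PSBY (0.0254). These 3 scalings put the median of trans genes of Chr.1, Chr.4 and Chr.5 at -0.05, -0.09 and -0.08. Without the intensity trend 671 were lower, 23 above and 51 below dose. Lowess, chosen after seeing the data, gave medians of 0.5619 and 0.5099. A floor of 16 left all 200 named results on their side of the threshold. The cause of these shifts was not tested.

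The replicate numbers do not pair the samples: deviations of same-numbered WT and AAa arrays correlated at 0.0099. With the replicate block 2140 probe sets were higher and 978 lower, with 467 and 451 trans genes, 611 and 5 cis genes, 51 above and 104 below gene dose, and cis medians of 0.5537 and 0.516, and 4 of 200 named results lost their call (UGT88A1, AT3G08610, LCR68 and psbC).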
